A study of Mus musculus with 30 samples.

Results

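This account sets naive mouse CD8 T cells activated with IL12 directly against the same kind of cells activated with TGFB1, both from wild type (WT) C57BL/6 mice. The members were all libraries of genotype WT whose title names IL12 or TGFB1, which gave 10 of the 30 libraries of the series, 5 with each cytokine. Cells were sorted magnetically from spleen and lymph nodes of mice aged 8 weeks and cultured without serum for 3 days while plate-bound antibodies to CD3 and CD28, at 5 µg/ml each, activated them. The IL12 cultures received recombinant IL12 at 10 ng/ml, the TGFB1 cultures recombinant TGFB1 at 0.5 ng/ml, and 5 further WT cultures received no added cytokine. The 2 doses were not matched, and no culture received both cytokines. Further cultures labelled KO, from a series on loss of the proprotein convertase FURIN, were treated in the same way, with 5 libraries per condition. The labels do not name the allele. Values of the KO libraries are given only where stated, but all 30 libraries entered the fit behind the standard errors and adjusted p-values. Each group held 4 libraries from females and 1 from a male. The titles number the WT libraries 62, 67, 71, 72 and 75, and wherever 5 values of a group are given they follow that order. The labels do not say that a number stands for an animal, so p-values measure the spread between cultures.

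CD8 T cells that meet antigen divide and turn into killer cells, and cytokines present during activation steer that step. IL12, made by antigen-presenting cells, signals through the receptor chains IL12RB1 and IL12RB2 to the transcription factor STAT4 and favours the production of interferon gamma and of cytotoxic granules. TGFB1 signals through the receptor kinases TGFBR2 and TGFBR1 to SMAD2 and SMAD3, restrains the cytotoxic program, and induces the integrin chain CD103, which holds T cells in epithelia.

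Poly(A) RNA was sequenced, and the deposited values were raw counts of reads for each gene. Total counts ran between 7306151 and 10406630 in the IL12 libraries and between 8553822 and 11435315 in the TGFB1 libraries. The first principal component of the 10 libraries held 61.0% of the variance and placed every IL12 library (27.2 to 55.5) above every TGFB1 library (-54.9 to -7.42). Of the TGFB1 libraries, number 62 lay nearest to the IL12 side, and its median correlation with its own group was 0.962, against 0.982 to 0.987 for the other 4. The second component (12.8%) placed IL12 libraries 62 and 67, at 29.3 and 17.9, apart from IL12 libraries 71, 72 and 75, at -14.3, -17.1 and -21.2. These 3 libraries (IL12 62, IL12 67 and TGFB1 62) are called the outlying libraries here, a choice made after their values were seen, and counts for gene lists are given with and without them. Summed over 10 markers of CD8 T cells, the level was 4701 to 5211 CPM (counts scaled to the effective library size) with IL12 and 4955 to 7363 CPM with TGFB1. Markers of other cells summed to 8.61 to 13.2 CPM with IL12 and 11.9 to 18.9 CPM with TGFB1 for B cells (1 of 8 markers at 0 in all 10 libraries), and to 2.46 to 8.11 CPM and 3.36 to 7.49 CPM for monocytes (0 of 8 at 0). Dendritic cell markers summed to 2.32 to 5.26 CPM with IL12 and 0.854 to 2.12 CPM with TGFB1 (2 of 6 at 0), and NK and innate lymphoid markers to 28.7 to 48.9 CPM and 2.74 to 10.4 CPM (0 of 5 at 0). The last list includes Eomes, which activated CD8 T cells also express. In bulk RNA, fewer cells of a type and less RNA per cell cannot be told apart.

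IL12 and TGFB1 left the cells with widely different transcriptomes. Of 11718 genes tested, 3116 (26.6%) were higher and 3034 (25.9%) lower with IL12 than with TGFB1 (52.5% in all; edgeR quasi-likelihood test, Benjamini-Hochberg adjusted p below 0.05). Most of these differences were small: the median size among called genes was 0.54 on the log2 scale, and 588 genes (5.02%) were higher and 665 (5.68%) lower by at least 2-fold. For 2485 genes (21.2%) all 5 IL12 libraries lay on one side of all 5 TGFB1 libraries. The median log2 fold change over all tested genes was -0.0056. These shares called (26.6% higher, 25.9% lower, 52.5% in all) and this median are the background for every gene list below. Without the 3 outlying libraries 3368 genes were higher and 3394 lower. The size of the difference varied with the title number. Among the called genes the median size was 0.64 in the libraries numbered 71, 72 and 75 and 0.39 in those numbered 62 and 67. Of the 6150 called genes 5979 had the same sign in both sets. These genes were called over both sets together, so the calling favoured a shared sign and a larger size in the set with more libraries. Below, log2 fold changes are IL12 over TGFB1 with their standard error (5 libraries in each group), so that a positive value means higher with IL12. Standard errors and adjusted p come from the fit to all 30 libraries, KO included. With the 10 compared libraries alone 2272 genes were higher and 2287 lower. In that fit the adjusted p was 0.00011 for Gzmb and 2.8e-05 for Itgae, and Ctsw and Ahrr lost their call.

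**Figure D1:**
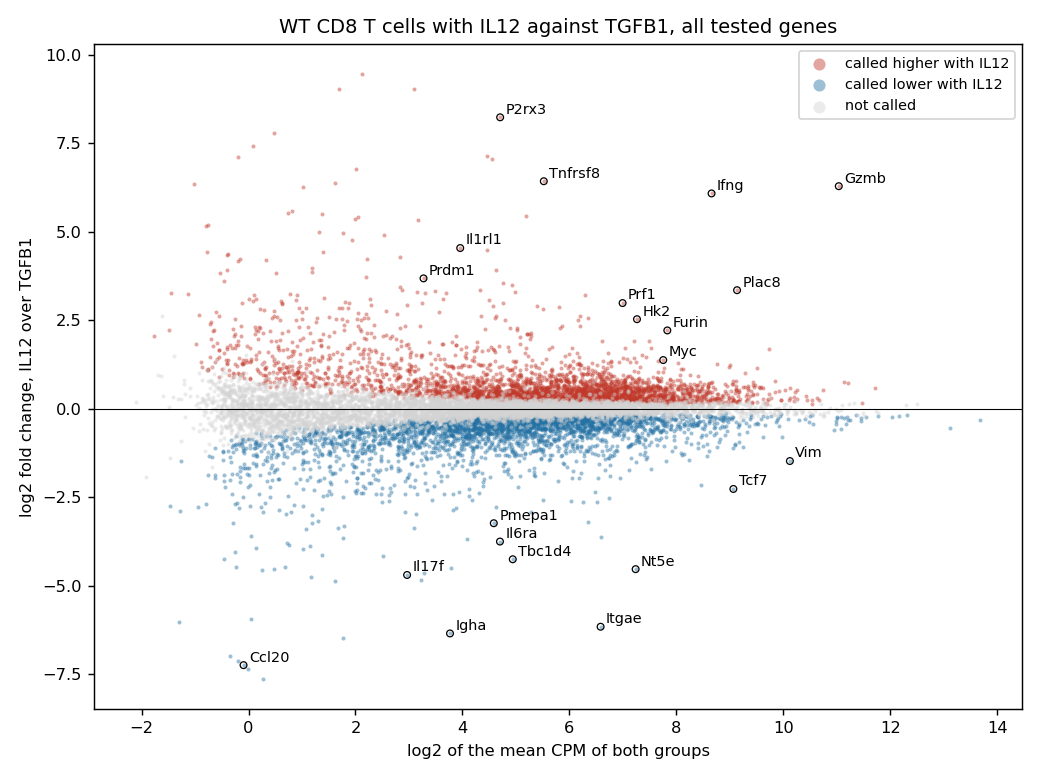
Each point is 1 of 11718 tested genes, with the log2 of its mean CPM over both groups on the x axis and the log2 fold change (IL12 over TGFB1, WT libraries) on the y axis; red genes were called higher with IL12, blue genes lower, and grey genes were not called. Gzmb and Ifng combine a high level with a log2 fold change above 6, and Itgae and Nt5e lie at -6.16 and -4.53.

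The killing machinery was much higher with IL12. Gzmb encodes granzyme B, the protease that killer cells inject into targets (ENSMUSG00000015437, GRCm38 chromosome 14, 56258838 to 56262260). It had 2239, 2419, 4594, 5411 and 6084 CPM with IL12, against 167, 18.8, 13.9, 26.9 and 41.5 CPM with TGFB1 (log2 fold change 6.28 ± 0.52, adjusted p = 4.1e-10). Without TGFB1 library 62 that fold change was larger (7.36). The groups did not overlap, the lowest IL12 libraries being 62 and 67 and the highest TGFB1 library 62. Cells without added cytokine had 959 ± 119 CPM (SD, n = 5), between both groups: the log2 fold change over those cells was 2.11 (adjusted p = 0.00082) with IL12 and -4.17 (adjusted p = 2.2e-07) with TGFB1. Prf1, which encodes the pore protein perforin, had 212, 201, 211, 193 and 316 CPM with IL12, against 38.98, 24.7, 23.8, 20.4 and 35.5 CPM with TGFB1 (log2 fold change 2.98 ± 0.26, adjusted p = 1.2e-09). Library 75 stood out among the IL12 libraries, and the groups did not overlap. Gzmc, a granzyme of the same gene cluster as Gzmb, had 6.70, 6.30, 8.38, 22.7 and 23.5 CPM with IL12, against 1.12, 0.59, 0.0883, 0.569 and 1.15 CPM with TGFB1. For Gzmc the log2 fold change was 4.27 ± 0.52 (adjusted p = 2.3e-07). Tnfsf10, which encodes the death ligand TRAIL, had 53.2, 65.9, 105, 107 and 160 CPM with IL12, against 16.5, 12.51, 12.1, 10.4 and 15.5 CPM with TGFB1. For Tnfsf10 the log2 fold change was 2.88 ± 0.24 (adjusted p = 6.5e-10). For both genes every IL12 library was above every TGFB1 library. The granule protein gene Nkg7 was also higher, at 371 ± 61.1 CPM with IL12 and 151 ± 24.9 CPM with TGFB1 (SD, n = 5 each; log2 fold change 1.30 ± 0.14, adjusted p = 2.4e-08). Ctsw, a cysteine protease of cytotoxic cells, went the other way, with 42.4, 50.97, 71.7, 52.1 and 76.97 CPM with IL12, against 46.4, 104, 122, 73.5 and 98.7 CPM with TGFB1 (log2 fold change -0.59 ± 0.20, adjusted p = 0.012). Its groups overlapped, and its adjusted p was 0.063 without TGFB1 library 71 and 0.060 with the 10 compared libraries alone. The list of cytotoxic genes also held granzyme inhibitors. Of its 15 tested genes 10 (66.7%) were higher and 1 (6.67%) lower, against 26.6% and 25.9% of all genes. Its median log2 fold change was 1.47, and without the outlying libraries 10 were higher and 1 lower. All granzyme genes together held 0.41% ± 0.166 of the counts with IL12, 0.00574% ± 0.00651 with TGFB1 and 0.0957% ± 0.0126 without added cytokine (SD, n = 5 each). TGFB1 library 62 held 0.0172%, and without it the TGFB1 mean was 0.00287% ± 0.00139 (SD, n = 4). The difference between IL12 and TGFB1 had p = 0.00794 in a two-sided exact permutation test, the smallest p that 5 against 5 libraries can give.

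Cytokine genes followed the same direction, led by the product for which IL12 is best known. Ifng encodes interferon gamma (GRCm38 chromosome 10, 118441046 to 118445892). It had 276, 302, 750.5, 1370 and 1282 CPM with IL12, against 23.8, 8.73, 6.62, 9.11 and 11.2 CPM with TGFB1 (log2 fold change 6.08 ± 0.52, adjusted p = 8e-10). The groups did not overlap, and the level with TGFB1 stood beside 9.52 ± 3.33 CPM without added cytokine, with a log2 fold change over those cells of 0.29 (adjusted p = 0.69). Il10, which encodes an anti-inflammatory cytokine, had 0.547, 0.388, 12.2, 7.58 and 9.53 CPM with IL12, against 0, 0.236, 0.0883, 0 and 0 CPM with TGFB1. That is 299 counts against 3, a ratio of 105 with an exact 95% interval of 35.6 to 512 that covers counting error only (adjusted p = 3.8e-06). Nearly all of it came from IL12 libraries 71, 72 and 75, and in numbers 62 and 67 alone the adjusted p was 0.36. Tnf, which encodes tumour necrosis factor, had 22, 23.3, 28.8, 29.2 and 22.3 CPM with IL12, against 15.2, 6.49, 6.44, 6.92 and 7.40 CPM with TGFB1. For Tnf the log2 fold change was 1.57 ± 0.21 (adjusted p = 1.5e-06). TGFB1 library 62 was about as far from the other TGFB1 libraries as from the IL12 libraries, and the groups did not overlap. Il2, the T cell growth factor gene, averaged 7.02 ± 3.83 CPM with IL12 and 1.496 ± 1.42 CPM with TGFB1 (SD, n = 5 each; log2 fold change 2.26 ± 0.54, adjusted p = 0.00094; 2.96 without TGFB1 library 62). Il3, a growth factor for blood cells, was higher as well (log2 fold change 2.57 ± 0.49, adjusted p = 8.9e-05), as were Csf2, which encodes GM-CSF (1.93 ± 0.38, adjusted p = 0.00014), and Spp1, which encodes osteopontin (2.98 ± 0.39, adjusted p = 8.5e-07). Il17f, a cytokine gene of the type 17 program, was the largest fall of the list, with 0.41, 0.388, 0.578, 0.737 and 0.725 CPM with IL12, against 10.1, 7.67, 17.3, 26.4 and 13.8 CPM with TGFB1. For Il17f the log2 fold change was -4.69 ± 0.53 (adjusted p = 9.2e-08). Il16 was the other gene that fell (log2 fold change -0.95 ± 0.14, adjusted p = 2.9e-06). In all, 12 of 16 tested cytokine genes were higher and 2 lower (median 1.72, also with Il10 set at the lower end of its interval, and 2.38 without TGFB1 library 62), and without the outlying libraries 11 were higher and 2 lower.

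**Figure D2:**
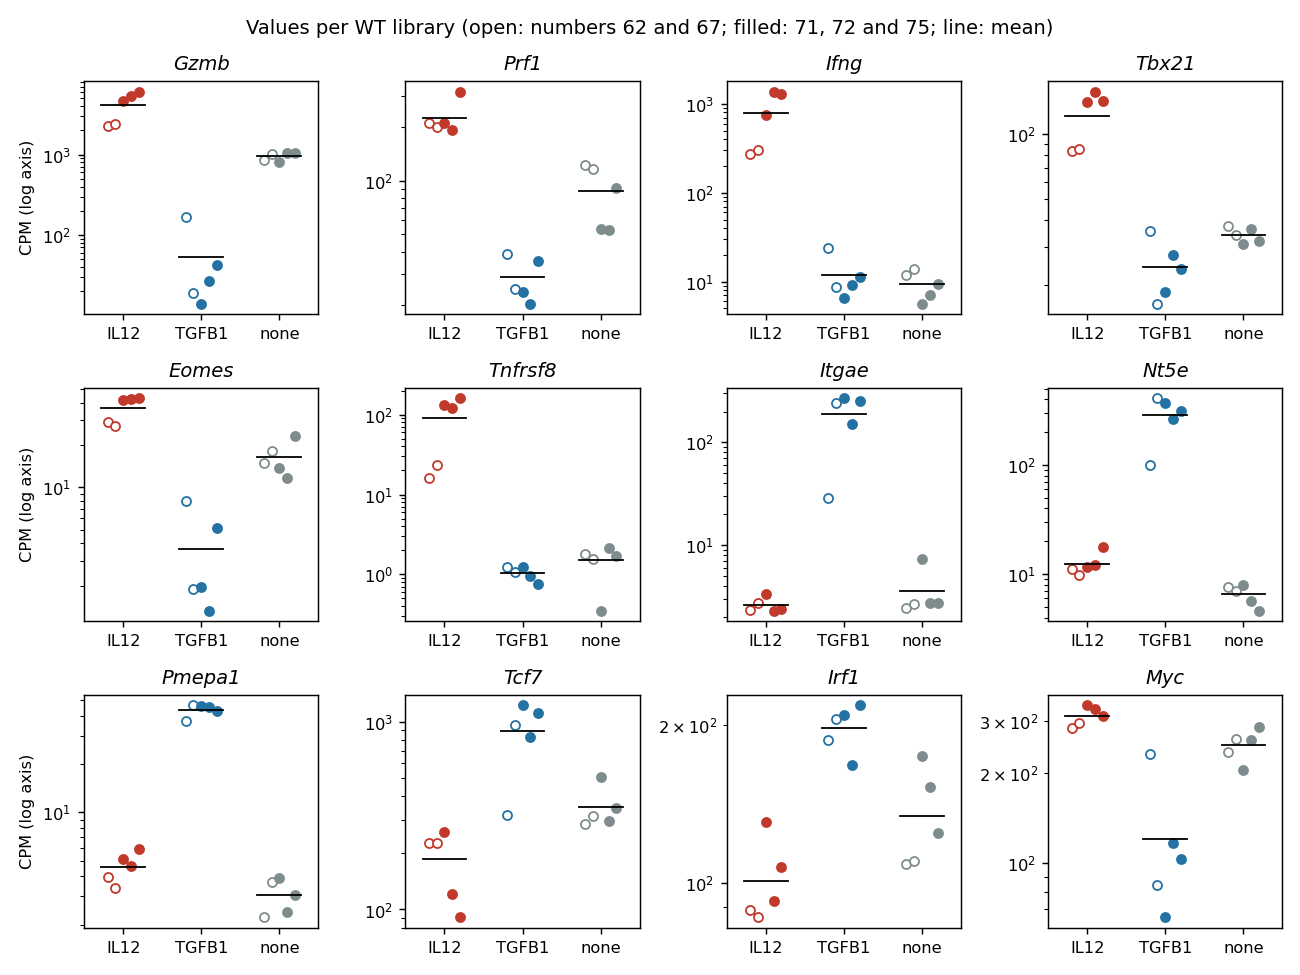
CPM on a log axis for 12 genes in each WT library with IL12 (red), TGFB1 (blue) and no added cytokine (grey); open symbols are title numbers 62 and 67, filled symbols 71, 72 and 75, and lines are group means. For Gzmb, Prf1, Eomes and Tbx21 the mean of cells without added cytokine lies between the means of both cytokine groups, and for Itgae, Nt5e and Pmepa1 it lies near that of the IL12 libraries.

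The receptors that make a cell sensitive to IL12 and related cytokines split between the groups, and the factor that signals for IL12 did not pass the test. Il12rb2, the inducible chain of the IL12 receptor, had 167, 179, 397, 367 and 302 CPM with IL12, against 129, 67.01, 49.8, 89.3 and 94.7 CPM with TGFB1 (log2 fold change 1.72 ± 0.26, adjusted p = 5.7e-06). The groups did not overlap, though IL12 libraries 62 and 67 were much nearer to TGFB1 library 62 than the other IL12 libraries were, and in numbers 62 and 67 alone the adjusted p was 0.11. Il18rap, a chain of the IL18 receptor, had 39.5, 35.5, 70.8, 61.05 and 61.5 CPM with IL12, against 6.94, 13.1, 16.8, 10.5 and 9.99 CPM with TGFB1. For Il18rap the log2 fold change was 2.22 ± 0.25 (adjusted p = 1e-07). Its partner chain gene Il18r1 had 48.2, 53.8, 134, 129 and 133 CPM with IL12, against 17.2, 42.9, 75.6, 40.3 and 29.6 CPM with TGFB1 (log2 fold change 1.27 ± 0.31, adjusted p = 0.0012). Il18r1 overlapped between the groups, and both cytokines raised it over cells without added cytokine: the log2 fold change was 3.00 (adjusted p = 6.5e-07) with IL12 and 1.73 (adjusted p = 0.00032) with TGFB1. Il1rl1, which encodes the IL33 receptor ST2, had 21.4, 16.7, 39.7, 38.95 and 32.5 CPM with IL12, against 0.336, 0.354, 0.883, 0.854 and 3.75 CPM with TGFB1. For Il1rl1 the log2 fold change was 4.54 ± 0.41 (adjusted p = 2e-09), and 5.53 without TGFB1 library 75. Il23r, a chain of the IL23 receptor, had 0.957, 1.36, 12.3, 13.6 and 12.4 CPM with IL12, against 0.112, 0.236, 0.176, 0.285 and 0.0961 CPM with TGFB1. For Il23r the log2 fold change was 5.40 ± 0.95 (adjusted p = 9e-05). Neither receptor overlapped between the groups, and both were low with TGFB1. Il6ra, the IL6 receptor gene, was lower, with 5.33, 6.88, 3.47, 1.58 and 0.829 CPM with IL12, against 35.3, 40.2, 66.5, 53.5 and 46.7 CPM with TGFB1. For Il6ra the log2 fold change was -3.75 ± 0.29 (adjusted p = 1.5e-10). Ifngr2, the signalling chain of the interferon gamma receptor, was lower too, with 2.19, 2.13, 1.73, 1.47 and 1.45 CPM with IL12, against 8.18, 7.32, 6.27, 8.16 and 8.65 CPM with TGFB1. For Ifngr2 the log2 fold change was -2.10 ± 0.23 (adjusted p = 5.7e-08). The IL12 libraries had much more Ifng and less of this receptor chain, and neither gene overlapped between the groups. Of 16 genes on the list of IL12-family, IL18 and IL33 receptors and their signalling, 7 were higher and 5 lower (median 0.034). That is 75% called, against 52.5% of all genes, and without the outlying libraries 7 were higher and 6 lower. Stat4, the factor that IL12 activates, averaged 83.4 ± 16.8 CPM with IL12 and 72.6 ± 10.2 CPM with TGFB1 (SD, n = 5 each), and its difference missed the threshold (log2 fold change 0.20 ± 0.15, adjusted p = 0.28).

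Among feedback inhibitors of cytokine signalling, Socs3 had 37.2, 35.1, 63.9, 73.5 and 69.2 CPM with IL12, against 27.7, 10.97, 15.98, 12.2 and 19.03 CPM with TGFB1 (log2 fold change 1.70 ± 0.27, adjusted p = 9.5e-06), without overlap. Socs1 overlapped between the groups through TGFB1 library 62 (log2 fold change 0.65 ± 0.18, adjusted p = 0.0029). Among the receptors that share the common gamma chain, Il2ra, the high-affinity chain of the IL2 receptor, had 1099, 1258, 1352, 1264 and 1516 CPM with IL12, against 867, 262, 211, 358 and 305 CPM with TGFB1. For Il2ra the log2 fold change was 1.70 ± 0.25 (adjusted p = 3.7e-06). TGFB1 library 62 was far above the other TGFB1 libraries. Il4ra was higher (log2 fold change 0.85 ± 0.16, adjusted p = 0.00011) and Il9r lower (log2 fold change -2.75 ± 0.56, adjusted p = 0.00018), and of the 10 genes of that list 3 were higher and 3 lower (60% called, near the share of all genes; 3 and 4 without the outlying libraries). The receptor for IL10, Il10ra, was higher beside its ligand (log2 fold change 1.75 ± 0.26, adjusted p = 3.6e-06).

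Transcription factors of the effector state and of the naive or memory state moved apart. Tbx21 encodes T-BET, the main driver of the interferon program, and had 83.8, 85.4, 141, 157 and 142 CPM with IL12, against 35.6, 16.4, 18.6, 27.6 and 23.6 CPM with TGFB1. For Tbx21 the log2 fold change was 2.32 ± 0.20 (adjusted p = 6.3e-10). Eomes, its relative, had 29.1, 27.03, 41.7, 42.3 and 42.8 CPM with IL12, against 7.95, 1.89, 1.94, 1.33 and 5.09 CPM with TGFB1. For Eomes the log2 fold change was 3.34 ± 0.31 (adjusted p = 3.9e-09). Prdm1, which encodes BLIMP1, a repressor of memory genes, had 9.70, 12.7, 26.5, 17.4 and 23.4 CPM with IL12, against 2.13, 0.708, 0.706, 2.47 and 0.961 CPM with TGFB1. For Prdm1 the log2 fold change was 3.68 ± 0.36 (adjusted p = 7.1e-09). All 3 genes were higher in every IL12 library than in any TGFB1 library. Zeb2 (2.47 ± 0.36, adjusted p = 4.1e-06), a partner of T-BET in terminal effectors, Hopx (2.57 ± 0.29, adjusted p = 7.3e-08), Hic1 (2.15 ± 0.30, adjusted p = 2.4e-06) and Id2 (0.98 ± 0.13, adjusted p = 9.5e-07), a helix-loop-helix inhibitor that effector cells express, were higher as well (log2 fold change ± SE and adjusted p). Tcf7, which encodes TCF1, the factor that keeps T cells naive or memory-like, had 227, 225, 260, 120.2 and 90.9 CPM with IL12, against 318, 958, 1224, 828 and 1110 CPM with TGFB1. For Tcf7 the log2 fold change was -2.27 ± 0.31 (adjusted p = 1.6e-06). TGFB1 library 62 held far less than the other TGFB1 libraries, and the groups did not overlap. Klf2, a quiescence factor that drives exit from tissue, had 40.3, 41.96, 42.8, 19.1 and 16.8 CPM with IL12, against 78.2, 206, 250, 161 and 218 CPM with TGFB1. For Klf2 the log2 fold change was -2.51 ± 0.37 (adjusted p = 5.1e-06). Ikzf2, which encodes HELIOS, had 9.84, 9.40, 19.6, 8.53 and 10.6 CPM with IL12, against 20.7, 72.1, 50.7, 42.7 and 84.5 CPM with TGFB1 (log2 fold change -2.22 ± 0.27, adjusted p = 2.4e-07). Bcl6, a repressor that opposes BLIMP1, was lower (log2 fold change -1.48 ± 0.36, adjusted p = 0.0012), with overlap through TGFB1 library 62. In this list of 28 tested factors 11 were higher and 12 lower (82.1% called, against 52.5% of all genes), and without the outlying libraries 11 were higher and 13 lower. Of 23 naive and central memory genes 4 were higher and 12 lower, with a median of -0.89 (4 and 14 without the outlying libraries). Ccr7, the receptor that guides T cells into lymph nodes, averaged 389.5 ± 62.8 CPM with IL12 and 824 ± 143 CPM with TGFB1 (SD, n = 5 each; log2 fold change -1.08 ± 0.18, adjusted p = 1.5e-05).

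Most feedback genes of TGFB signalling were lower in the IL12 cultures. Pmepa1, which encodes an inhibitor of SMAD activation, had 3.96, 3.39, 5.11, 4.63 and 5.91 CPM with IL12, against 36.96, 46.5, 45.7, 45.5 and 42.6 CPM with TGFB1. For Pmepa1 the log2 fold change was -3.23 ± 0.20 (adjusted p = 2.6e-12). It varied little within either group, and TGFB1 library 62 was not far from the other 4. Ldlrad4, an inhibitor of the same pathway, had 1.503, 1.07, 2.22, 2.0 and 1.86 CPM with IL12, against 2.80, 14.04, 14.7, 9.20 and 12.2 CPM with TGFB1 (log2 fold change -2.60 ± 0.37, adjusted p = 2.8e-06). Smad7, the inhibitory SMAD, averaged 8.87 ± 2.60 CPM with IL12 and 26.2 ± 9.66 CPM with TGFB1 (SD, n = 5 each; log2 fold change -1.56 ± 0.24, adjusted p = 7.6e-06), with overlap through TGFB1 library 62. The SMAD corepressor genes Skil (log2 fold change -1.17 ± 0.11, adjusted p = 2.1e-09) and Ski (log2 fold change -1.03 ± 0.12, adjusted p = 2e-07) were both lower without overlap. Both signalling receptors were lower with IL12: Tgfbr1 (log2 fold change -1.20 ± 0.15, adjusted p = 3.7e-07) did not overlap and Tgfbr2 (log2 fold change -1.26 ± 0.19, adjusted p = 7e-06) did. Tgfbr3, which encodes the co-receptor betaglycan, was higher, with 13.4, 14.8, 34.1, 29.9 and 22.8 CPM with IL12, against 6.72, 3.30, 6.62, 8.92 and 7.30 CPM with TGFB1. For Tgfbr3 the log2 fold change was 1.80 ± 0.24 (adjusted p = 1e-06). Of 21 tested ligands, receptors and feedback genes 6 were higher and 12 lower (median -0.32), and without the outlying libraries 4 were higher and 12 lower. Against cells without added cytokine, Pmepa1 had a log2 fold change of 0.59 (adjusted p = 0.081) with IL12 and 3.82 (adjusted p = 2e-13) with TGFB1, and Smad7 had 0.27 (adjusted p = 0.49) with IL12 and 1.83 (adjusted p = 3.6e-06) with TGFB1.

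Itgae, which encodes the integrin chain CD103 (GRCm38 chromosome 11, 73090583 to 73147446), was far higher in the TGFB1 cultures. It had 2.32, 2.71, 3.37, 2.32 and 2.38 CPM with IL12, against 28.9, 244, 268, 152 and 254 CPM with TGFB1 (log2 fold change -6.16 ± 0.46, adjusted p = 8.2e-11). Even TGFB1 library 62, the lowest of its group, was above all IL12 libraries. Without added cytokine the level was 3.58 ± 2.08 CPM, against which the IL12 cultures had a log2 fold change of -0.43 (adjusted p = 0.64). Nt5e encodes CD73, an ectoenzyme that makes adenosine (GRCm38 chromosome 9, 88327197 to 88372092), and had 11.1, 9.79, 11.8, 12.2 and 17.7 CPM with IL12, against 99.1, 406, 366, 266 and 311 CPM with TGFB1 (log2 fold change -4.53 ± 0.30, adjusted p = 9.8e-12), again without overlap. Itgb7, the partner chain of CD103 and of the gut-homing integrin, had 154, 168, 178, 75.6 and 74.7 CPM with IL12, against 221, 658, 851, 450.3 and 699.7 CPM with TGFB1 (log2 fold change -2.15 ± 0.33, adjusted p = 6.6e-06). Igha, the constant region gene of IgA, whose unrearranged transcript TGFB1 is known to induce in B cells, had 0.547, 0.194, 0.289, 0.21 and 0.414 CPM with IL12, against 5.15, 31.1, 28.4, 31.7 and 38.1 CPM with TGFB1 (log2 fold change -6.35 ± 0.55, adjusted p = 8.8e-10). The B cell markers summed to at most 18.9 CPM in any of the 10 libraries, and their part in this difference was not tested. Among matrix and adhesion genes known as TGFB targets, Timp2, a protease inhibitor, (-2.92 ± 0.30, adjusted p = 1.7e-08), Adam19, a sheddase, (-1.77 ± 0.25, adjusted p = 2.4e-06) and Jup, which encodes plakoglobin, (-3.16 ± 0.51, adjusted p = 1.5e-05) were lower. Serpine2, which encodes a protease inhibitor, was higher (log2 fold change 1.18 ± 0.20, adjusted p = 2.4e-05). The list of 14 such genes held 4 that were higher and 6 that were lower (median -0.22), but 5 that were higher and 4 that were lower without the outlying libraries, and leaving out TGFB1 library 71 put its median at 0.0091. Of 19 tissue-residence genes 5 were higher and 8 lower (median -0.33; 68.4% called, against 52.5% of all genes; 4 and 8 without the outlying libraries), and Cxcr6, a residence receptor, missed the threshold (log2 fold change -0.28 ± 0.30, adjusted p = 0.45). The lower ones included Klf2 (-2.51) and S1pr1 (-1.95), genes of exit from tissue or lymphoid organs. The counts of this list therefore give no direction for residence. Vim, which encodes the filament protein vimentin, is an abundant transcript that fell, with 522, 579, 631, 537 and 676 CPM with IL12, against 1439, 1531, 2055, 1857 and 1323 CPM with TGFB1. For Vim the log2 fold change was -1.48 ± 0.13 (adjusted p = 8.5e-10). Tbc1d4, a regulator of glucose transporter traffic, was lower without overlap, at 3.13 ± 1.36 CPM with IL12 and 58.3 ± 18.1 CPM with TGFB1 (SD, n = 5 each; log2 fold change -4.25 ± 0.27, adjusted p = 2.7e-12).

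Genes of the type 17 and regulatory programs, which TGFB1 is known to support in CD4 T cells, were mostly lower with IL12, and several were near 0 there. Maf, a transcription factor of the type 17 program, had 0.273, 0.581, 0.482, 2.10 and 2.28 CPM with IL12, against 6.496, 25.8, 43.5, 34.3 and 21.5 CPM with TGFB1. For Maf the log2 fold change was -4.49 ± 0.51 (adjusted p = 9.2e-08). Ccr6, a type 17 chemokine receptor, had 1.78, 0.678, 0.193, 0.737 and 0.518 CPM with IL12, against 14.2, 19.6, 18.4, 18.97 and 21.7 CPM with TGFB1. For Ccr6 the log2 fold change was -4.64 ± 0.38 (adjusted p = 4.1e-10). Neither gene overlapped between the groups. Ccl20, the ligand of CCR6, had no count in any IL12 library and 1.79, 0.708, 2.03, 4.17 and 0.673 CPM with TGFB1, so it was at least 30.4-fold lower with IL12, set against 3 counts over the group (adjusted p = 9.3e-05). Foxp3 encodes the defining factor of the regulatory lineage and was read at 0.41, 0.872, 0, 0.21 and 0.311 CPM with IL12, against 2.02, 2.36, 5.03, 3.23 and 1.73 CPM with TGFB1 (log2 fold change -2.97 ± 0.53, adjusted p = 4.9e-05), a low level in both. Its log2 fold change was -3.65 without IL12 library 67. Of 17 tested genes of the regulatory and type 17 list 3 were higher and 9 lower (median -0.68; 2 and 9 without the outlying libraries). Among markers of CD4 T cells, Cd4 was read at 0 to 0.41 CPM with IL12 (median 0.104) and 0.112 to 1.85 CPM with TGFB1 (median 1.04), and Zbtb7b, the factor that sets the CD4 lineage, had medians of 16.4 CPM with IL12 and 24.1 CPM with TGFB1. With Cd40lg, which went the other way, the 3 markers summed to 19.9 to 33.6 CPM with IL12 and 19 to 28.1 CPM with TGFB1 (0 of 3 at 0), and their part in the differences of the type 17 and regulatory genes was not tested. The aryl hydrocarbon receptor, a sensor of aromatic ligands that type 17 cells use, behaved alike: Ahr was lower (log2 fold change -1.94 ± 0.37, adjusted p = 0.00011), and so was its target Cyp1a1, with 0, 0.0969, 0.0963, 0.105 and 0.414 CPM with IL12, against 1.90, 4.60, 6.09, 5.88 and 3.17 CPM with TGFB1 (log2 fold change -4.76 ± 0.52, adjusted p = 4.5e-08), and its fold change was -5.57 without IL12 library 75. The receptor repressor gene Ahrr overlapped (log2 fold change -1.08 ± 0.38, adjusted p = 0.018) and lost its call without IL12 library 62, IL12 library 67 or TGFB1 library 71, while its log2 fold change was -1.74 without IL12 library 72. Of the 7 tested genes of this list 4 were lower, or 3 without the outlying libraries, and the others were not called. The 4 are 57.1% of the list, near the 52.5% of all genes called either way, of which 25.9% were lower.

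Chemokine ligands were mostly higher and chemokine receptors split. Ccr2, a receptor of inflammatory T cells and monocytes, had 1.37, 1.36, 4.24, 3.79 and 2.90 CPM with IL12, against 0.112, 0.236, 0.265, 0.0949 and 0.865 CPM with TGFB1. For Ccr2 the log2 fold change was 3.05 ± 0.46 (adjusted p = 5.5e-06), and 3.86 without TGFB1 library 75. Ccl3 had 220.5, 226, 177, 248 and 292 CPM with IL12, against 102, 37.4, 39.4, 77.5 and 55.6 CPM with TGFB1 (log2 fold change 1.90 ± 0.29, adjusted p = 7.1e-06), and the neighbouring gene Ccl4 was higher as well (1.35 ± 0.27, adjusted p = 0.00016). Ccl9, a chemokine best known from myeloid cells, had 29.9, 28.4, 24.9, 60.3 and 105 CPM with IL12, against 1.68, 3.19, 2.12, 2.09 and 12.01 CPM with TGFB1. For Ccl9 the log2 fold change was 3.54 ± 0.48 (adjusted p = 1.3e-06), and 4.46 without TGFB1 library 75. Ccl5, a chemokine of effector T cells, overlapped between the groups and stood highest in IL12 library 75 (log2 fold change 1.44 ± 0.36, adjusted p = 0.0014). Cxcl10, an interferon-induced chemokine, was higher in IL12 libraries 71, 72 and 75 and not in 62 and 67, with 1.37, 1.16, 5.88, 8.32 and 9.84 CPM with IL12, against 1.12, 0.472, 0.53, 0.759 and 1.63 CPM with TGFB1 (log2 fold change 2.55 ± 0.55, adjusted p = 0.00039). Cxcl11 had 103 counts with IL12 and no count with TGFB1, so it was at least 36.2-fold higher, set against 3 counts over the group (adjusted p = 0.00034). In numbers 62 and 67 alone the adjusted p of Cxcl11 was 0.25. Of 11 chemokine genes 7 were higher and 1, Ccl20, lower (median 1.35, and 7 and 1 without the outlying libraries). Among the 18 tested migration receptors 5 were higher and 9 lower (median -0.68; 5 and 9 without the outlying libraries). The lower ones included Ccr8 (-4.12 ± 0.56, adjusted p = 2.5e-06), a skin-homing receptor, Ccr9 (-3.78 ± 0.82, adjusted p = 0.00037) and Gpr15 (-2.42 ± 0.51, adjusted p = 0.0003), which guide cells to the gut, and Cxcr3 (-2.29 ± 0.42, adjusted p = 6.4e-05), the receptor for CXCL10. Ccr9 and Cxcr3 each lost the call in numbers 62 and 67 alone. S1pr1, which lets T cells leave lymphoid organs, overlapped between the groups, with 9.56, 10.8, 49.9, 43.5 and 35.3 CPM with IL12, against 13.9, 138, 178, 96 and 151 CPM with TGFB1 (log2 fold change -1.95 ± 0.62, adjusted p = 0.0094). Fut7, an enzyme that makes selectin ligands, was lower without overlap (log2 fold change -1.54 ± 0.22, adjusted p = 2.6e-06).

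The IL12 cultures had far more Ifng, and yet many genes that interferon gamma is known to induce were lower in them than in the TGFB1 cultures. Irf1, a transcription factor gene that interferon gamma induces early, had 88.96, 86.1, 131, 92.3 and 108 CPM with IL12, against 187, 205, 209, 168 and 218 CPM with TGFB1 (log2 fold change -0.96 ± 0.13, adjusted p = 1.5e-06). Tgtp2, an interferon-induced GTPase gene, had 14.1, 13.5, 12.7, 11.5 and 10.8 CPM with IL12, against 33.9, 39.8, 55.4, 46.1 and 49.8 CPM with TGFB1. For Tgtp2 the log2 fold change was -1.85 ± 0.18 (adjusted p = 7e-09). Neither gene overlapped between the groups, and without added cytokine Irf1 was at 134 ± 28.6 CPM and Tgtp2 at 32.3 ± 6.13 CPM. Tgtp2 and the guanylate-binding protein genes have close paralogs, so reads may have been split among them. Of 34 tested interferon gamma response genes 19 were lower and 3 higher (median -0.48), against 25.9% lower and 26.6% higher of all genes, and without the outlying libraries 5 were higher and 18 lower. The 3 higher genes included Cxcl10 (log2 fold change 2.55) and Socs1 (0.65), and both lost the call in numbers 62 and 67 alone. Gbp6 had 3.69, 3.88, 5.59, 4.0 and 2.69 CPM with IL12, against 13.2, 21.7, 20.4, 12.8 and 22.8 CPM with TGFB1 (log2 fold change -2.19 ± 0.29, adjusted p = 1.1e-06), and Gbp10 was lower too (-3.36 ± 0.49, adjusted p = 3.3e-06). Gbp2, the guanylate-binding gene with the highest level, averaged 563 ± 85.8 CPM with IL12 and 641 ± 66.5 CPM with TGFB1 (SD, n = 5 each) and did not pass the test (log2 fold change -0.19 ± 0.15, adjusted p = 0.31). Against cells without added cytokine the list had a median log2 fold change of -0.4 with IL12 and of 0.22 with TGFB1. Of 29 type I interferon-stimulated genes 14 were lower and 2 higher (median -0.52; 55.2% called), against 11 lower and 4 higher without the outlying libraries, and Irf7, a factor that amplifies that response, was among the lower (log2 fold change -1.95 ± 0.45, adjusted p = 0.00076), with overlap. The 2 higher genes were Usp18 and Oasl2. Usp18, which encodes a protease that removes ISG15 from proteins and restrains the type I receptor, had 12.3, 9.59, 59.8, 69.5 and 84.7 CPM with IL12, against 10.1, 7.55, 7.503, 6.74 and 10.1 CPM with TGFB1. For Usp18 the log2 fold change was 2.496 ± 0.51 (adjusted p = 0.00021). Usp18 was high only in IL12 libraries 71, 72 and 75, and in numbers 62 and 67 alone its adjusted p was 0.8. Oasl2 was of the same shape (log2 fold change 2.60 ± 0.67, adjusted p = 0.0019) and had a log2 fold change of -0.31 in numbers 62 and 67 and of 1.89 without IL12 library 75. MHC class II genes, low in mouse T cells, fell in part: Cd74, the invariant chain gene, had 34.7, 27.4, 74.3, 105 and 51.2 CPM with IL12, against 154, 146, 113, 178 and 181 CPM with TGFB1 (log2 fold change -1.40 ± 0.24, adjusted p = 2.8e-05), and H2-Oa was lower as well (-1.78 ± 0.28, adjusted p = 8e-06).

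Promoter sequences are shown for 2 interferon response genes that fell and 2 cytokine signalling genes that rose, chosen because each holds the letters TTCNNNGAA, the core that STAT factors are known to bind. They were taken from RefSeq (GRCm38.p6), run 5′ to 3′ over 300 bases around the gene's start, and carry in capitals each match to TTCNNNGAA or, in Tgtp2, also to the core of the interferon-stimulated response element, which reads GAAA, any 2 bases, GAAA. RefSeq lists a further start for Irf1, whose promoter (chr11:53770223-53770522, plus strand) holds no match to these motifs and is not shown. The Irf1 promoter shown is chr11:53769764-53770063 on the plus strand, the Tgtp2 promoter chr11:49064163-49064462 on the minus strand, the Socs3 promoter chr11:117969317-117969616 on the minus strand and the Il12rb2 promoter chr6:67376139-67376438 on the minus strand.
Irf1 promoter: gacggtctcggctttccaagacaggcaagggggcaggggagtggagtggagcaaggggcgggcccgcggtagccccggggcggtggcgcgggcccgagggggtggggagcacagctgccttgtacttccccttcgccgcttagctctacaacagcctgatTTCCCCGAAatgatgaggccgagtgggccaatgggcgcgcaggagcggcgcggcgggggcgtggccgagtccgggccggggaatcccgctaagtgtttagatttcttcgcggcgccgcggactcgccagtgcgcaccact
Tgtp2 promoter: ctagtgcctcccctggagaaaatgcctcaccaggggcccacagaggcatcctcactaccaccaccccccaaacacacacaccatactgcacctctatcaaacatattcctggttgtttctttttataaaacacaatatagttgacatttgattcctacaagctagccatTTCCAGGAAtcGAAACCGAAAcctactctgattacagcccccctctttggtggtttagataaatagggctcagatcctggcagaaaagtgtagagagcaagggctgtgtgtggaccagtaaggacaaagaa
Socs3 promoter: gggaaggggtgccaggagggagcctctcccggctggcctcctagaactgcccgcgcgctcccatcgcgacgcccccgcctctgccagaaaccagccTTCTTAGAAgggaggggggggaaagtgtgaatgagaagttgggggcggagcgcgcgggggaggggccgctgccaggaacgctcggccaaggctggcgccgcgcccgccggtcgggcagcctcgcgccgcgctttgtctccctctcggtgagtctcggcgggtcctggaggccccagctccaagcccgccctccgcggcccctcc
Il12rb2 promoter: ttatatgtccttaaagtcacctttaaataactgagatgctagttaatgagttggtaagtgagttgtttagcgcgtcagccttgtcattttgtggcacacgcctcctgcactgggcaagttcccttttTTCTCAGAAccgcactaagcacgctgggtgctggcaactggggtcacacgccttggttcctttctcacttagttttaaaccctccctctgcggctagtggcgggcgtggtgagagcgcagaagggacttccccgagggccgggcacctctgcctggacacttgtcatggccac

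In Tgtp2 both matches lie almost side by side. With both strands searched and each promoter counted once per motif, TTCNNNGAA stood in 6.82% of the 11200 promoters found for tested genes, in 9.24% of those of genes at least 2-fold higher and in 6.38% of those at least 2-fold lower. The response element core stood in 3.18% of all these promoters, in 4.09% of the 2-fold higher and in 4.98% of the 2-fold lower. CAGACA, which holds the core that SMAD proteins bind, stood in 15.5% of all, in 16.9% of the 2-fold higher and in 17.7% of the 2-fold lower. The interferon gamma response list had TTCNNNGAA in 39.3% and the response element core in 42.9% of its 28 promoters. Of the 12 members of that list with the response element core, 6 were lower and 2 higher, and of the 11 with TTCNNNGAA, 5 were lower and 1 higher. Over the whole list 19 of 34 members (55.9%) were lower and 3 higher, so members with a motif were not more often lower. These are matches of letters in a short window and no evidence of binding.

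Surface receptors of activated T cells split between the groups. Tnfrsf8, which encodes CD30, had 15.99, 23.3, 133, 123 and 159 CPM with IL12, against 1.23, 1.06, 1.236, 0.949 and 0.769 CPM with TGFB1. For Tnfrsf8 the log2 fold change was 6.42 ± 0.66 (adjusted p = 1.9e-08). The 3 higher IL12 libraries were 71, 72 and 75, and the groups were far apart. Tnfrsf9, the costimulatory receptor 4-1BB, averaged 614 ± 181 CPM with IL12 and 257 ± 54.3 CPM with TGFB1 (SD, n = 5 each; log2 fold change 1.26 ± 0.15, adjusted p = 2.6e-07), and Tnfrsf4, which encodes OX40, was higher (1.31 ± 0.17, adjusted p = 6.9e-07). Cd40lg, the ligand by which T cells license antigen-presenting cells, was higher as well (log2 fold change 2.36 ± 0.49, adjusted p = 0.00025) but lost its call in numbers 62 and 67 alone. Cd27, a costimulatory receptor of memory cells, (-1.16 ± 0.20, adjusted p = 2.3e-05), and Cd86, a ligand of CD28 and CTLA4, (-2.90 ± 0.30, adjusted p = 1.7e-08) were lower. In this list of 23 costimulatory and activation genes 12 were higher and 5 lower (median 0.61), and without the outlying libraries 14 were higher and 5 lower. Of 15 tested inhibitory receptors 7 (46.7%) were lower and 2 (13.3%) higher, where 25.9% and 26.6% of all genes were (median -0.17). In all 60% of the list was called, near the 52.5% of all genes. Without the outlying libraries 7 were lower and 3 higher. Pdcd1, which encodes PD-1, had 93.7, 91.9, 84.3, 103 and 102 CPM with IL12, against 135, 212, 172, 219 and 201 CPM with TGFB1. For Pdcd1 the log2 fold change was -0.99 ± 0.19 (adjusted p = 0.00012). Lag3 was lower by less, at 306 ± 15.6 CPM with IL12 and 432 ± 30.8 CPM with TGFB1 (SD, n = 5 each; log2 fold change -0.50 ± 0.08, adjusted p = 7.4e-06), and neither gene overlapped. Ctla4 (-0.66 ± 0.16, adjusted p = 0.00097), Cd101 (-2.22 ± 0.23, adjusted p = 1.6e-08) and Cd96 (-1.74 ± 0.18, adjusted p = 3.1e-08) were lower too. Among 7 tested NK-type receptors 4 were higher and 1 lower, but without the outlying libraries 2 were higher and 2 lower. Klrk1, which encodes the activating receptor NKG2D, was higher in both readings and without overlap, with 99.9, 112, 140, 129.8 and 132 CPM with IL12, against 27.9, 56.5, 46.8, 58.4 and 58.8 CPM with TGFB1. For Klrk1 the log2 fold change was 1.30 ± 0.15 (adjusted p = 9.1e-08).

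Most genes on the lists for glycolysis, amino acid response, ribosome biogenesis and sterol synthesis were higher with IL12, as were 7 of 14 fatty acid synthesis genes. Myc, the growth factor-induced regulator of metabolism and ribosome production, had 285, 294, 339, 329 and 311 CPM with IL12, against 232, 84.1, 65.7, 117 and 103 CPM with TGFB1 (log2 fold change 1.37 ± 0.19, adjusted p = 2.3e-06). TGFB1 library 62 was close to the IL12 libraries, which varied little. Against cells without added cytokine the log2 fold change of Myc was 0.32 (adjusted p = 0.25) with IL12 and -1.06 (adjusted p = 0.00015) with TGFB1. Of 28 glycolysis and hypoxia genes 23 were higher and the others were not called (median 0.58). Hk2, the hexokinase that commits glucose to use, had 174, 179.5, 352, 330.5 and 273 CPM with IL12, against 91.3, 30.3, 20.7, 48.1 and 37.4 CPM with TGFB1 (log2 fold change 2.53 ± 0.28, adjusted p = 6.7e-08), and Slc2a1, the glucose transporter GLUT1, was higher (log2 fold change 1.33 ± 0.13, adjusted p = 5.6e-09). Of 27 amino acid response and transport genes 22 were higher and 1 lower (median 0.63), among them Slc7a5, the large neutral amino acid transporter, (1.244 ± 0.20, adjusted p = 1.3e-05) and Trib3, a stress-induced pseudokinase, (1.25 ± 0.23, adjusted p = 6.2e-05). Of 25 ribosome biogenesis genes 23 were higher and the others were not called (median 0.68), such as Rrp9 (1.09 ± 0.18, adjusted p = 1.6e-05), Nolc1 (1.03 ± 0.16, adjusted p = 1.2e-05) and Nop16 (1.02 ± 0.16, adjusted p = 7e-06), all acting in ribosomal RNA processing or assembly. Of 26 sterol synthesis genes 20 were higher and 1 lower (median 0.54). The higher ones included Hsd17b7 (1.14 ± 0.19, adjusted p = 1.7e-05) and Lss (1.05 ± 0.22, adjusted p = 0.00025). Of 14 fatty acid synthesis genes 7 were higher and the others were not called (median 0.51). That is 50% called, near the 52.5% of all genes, of which 26.6% were higher. Fasn, the fatty acid synthase, had 698 ± 167 CPM with IL12 and 309 ± 92.7 CPM with TGFB1 (SD, n = 5 each). Its log2 fold change was 1.18 ± 0.18 (adjusted p = 7.6e-06), and Elovl6 was higher too (1.25 ± 0.20, adjusted p = 1.3e-05). Without the outlying libraries 24 glycolysis genes, 22 amino acid genes, 22 ribosome biogenesis genes, 18 sterol genes and 7 fatty acid genes were higher, and 2 fatty acid genes were lower. Against cells without added cytokine these 5 lists had medians between -0.038 and 0.115 with IL12 and between -0.684 and -0.34 with TGFB1. Xbp1, a regulator of the secretory pathway, was also higher (log2 fold change 1.47 ± 0.19, adjusted p = 7.5e-07), and of 24 endoplasmic reticulum genes 15 were higher and 2 lower (median 0.27; 16 and 2 without the outlying libraries).

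Ribosomal protein genes were rarely called higher, and most mitotic genes were lower. Of 81 cytosolic ribosomal protein genes 2 (2.47%) were higher and 27 (33.3%) lower, against 26.6% and 25.9% of all genes (median -0.15). The count of lower genes rested on single libraries: it was 10 without the outlying libraries, 8 with the 10 compared libraries alone, 16 without IL12 library 62, 17 without IL12 library 67 and 57 without IL12 library 75. Those called lower included Rps20, with 1684, 1802, 1789, 2167 and 2321 CPM with IL12, against 2524, 3040, 2651, 2514 and 2446 CPM with TGFB1 (log2 fold change -0.43 ± 0.074, adjusted p = 2.8e-05), and Rpl3 (-0.33 ± 0.069, adjusted p = 0.00028). Ribosomal protein genes have many processed pseudogenes, so their counts are uncertain where reads could be shared. The 2 higher genes, Rps27l and Rpl7l1, are relatives of ribosomal protein genes that the name pattern also took in, and they are named here after their values were seen. The list depended on the title number: 60 genes were lower in numbers 62 and 67 and 8 in numbers 71, 72 and 75, with medians of -0.36 and -0.0068. Its share of all counts was 9.92% ± 1.34 with IL12 and 11.3% ± 0.409 with TGFB1 (SD, n = 5 each), a difference that did not pass a two-sided exact permutation test (p = 0.0794). In the list for the G2 and M phases, 20 of 30 were lower with IL12 and the others were not called (median -0.35), and without the outlying libraries 23 were lower. Ccnb2, which encodes cyclin B2, averaged 112 ± 11.8 CPM with IL12 and 202 ± 52.9 CPM with TGFB1 (SD, n = 5 each; log2 fold change -0.86 ± 0.13, adjusted p = 7.9e-06), and Cdc25b, the phosphatase that starts mitosis, was lower (-1.21 ± 0.21, adjusted p = 3e-05). Of 30 S phase genes 9 were higher and 4 lower (43.3% called, under the 52.5% of all genes), against 9 and 10 without the outlying libraries. Without IL12 library 75, TGFB1 library 67 or TGFB1 library 75 only 5 S phase genes were higher, and without IL12 library 72 or TGFB1 library 71 at most 2 were lower. Of 36 nuclear-encoded oxidative phosphorylation genes 8 were higher and 3 lower (30.6% called), against 14 and 3 without the outlying libraries, 13 and 3 in numbers 71, 72 and 75, and 1 and 3 in numbers 62 and 67. Without IL12 library 72 or TGFB1 library 75, 5 of them were higher, and without TGFB1 library 71, 1 was lower.

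**Figure D3:**
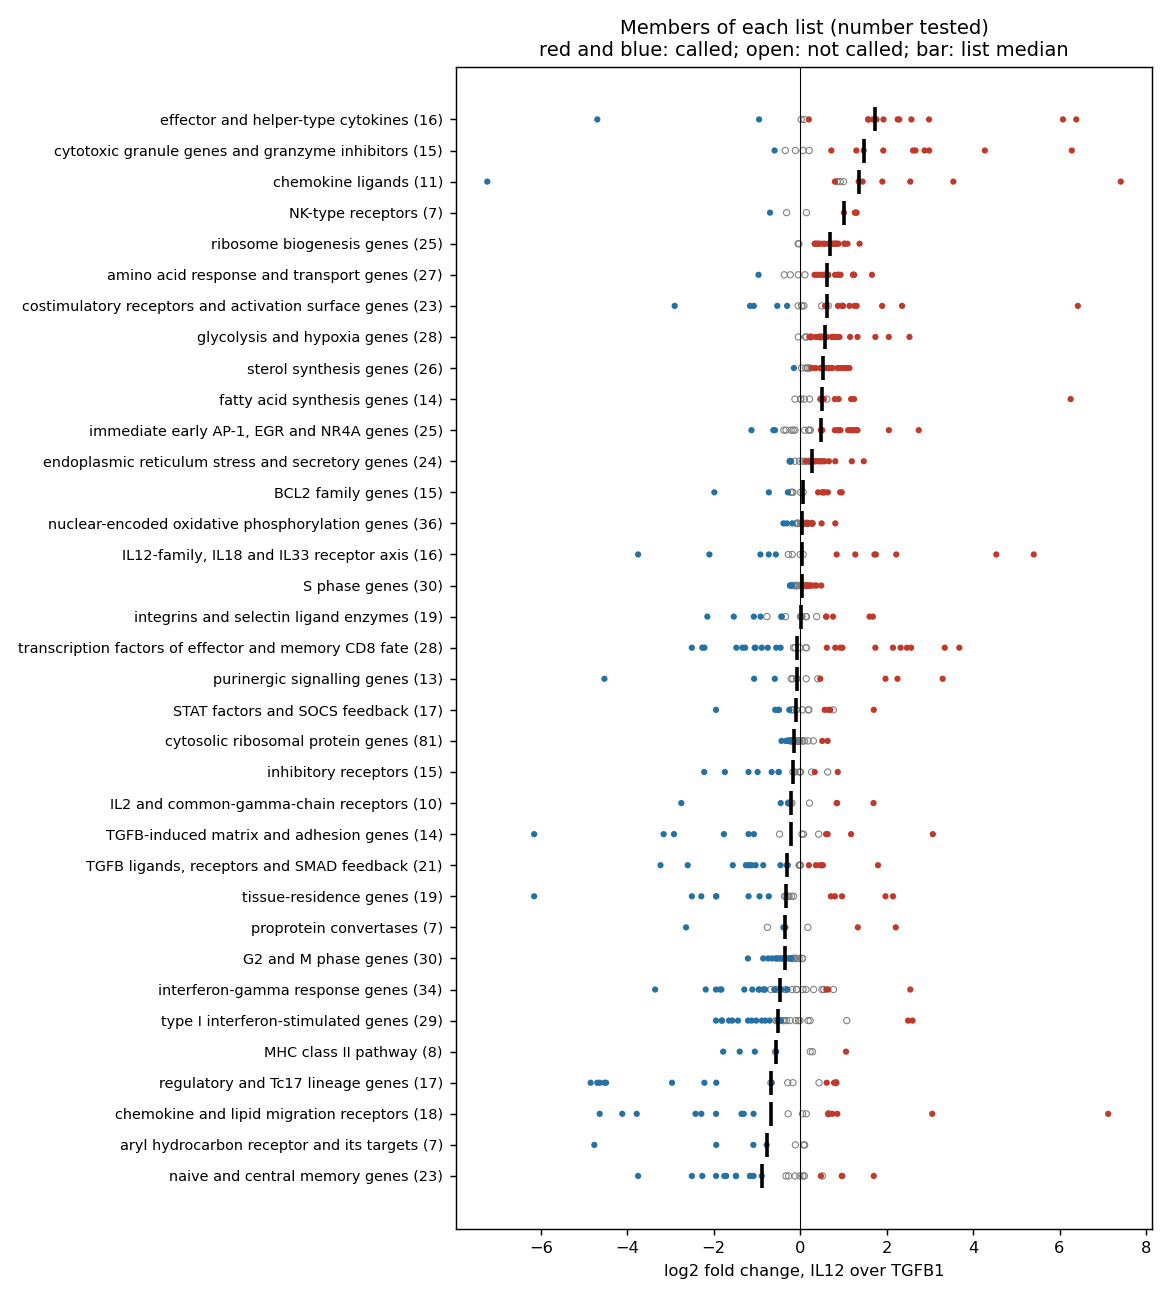
Log2 fold changes (IL12 over TGFB1, WT libraries) of the tested members of 35 gene lists, 1 point per gene; red and blue points were called higher and lower with IL12, open points were not called, bars are list medians, and the number tested stands in brackets. Effector cytokines have a median of 1.72 and naive and central memory genes one of -0.89.

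Some genes were read with one cytokine and almost silent with the other. By the thresholds used here, under 0.5 CPM in one group and at least 5 CPM in the other, 17 genes were high with IL12 and 3 with TGFB1. P2rx3, an ATP-gated ion channel best known from sensory neurons, had 11.5, 10.8, 66.9, 67.8 and 103 CPM with IL12, against 0.336, 0, 0, 0.19 and 0.288 CPM with TGFB1. For P2rx3 the log2 fold change was 8.23 ± 0.78 (adjusted p = 3.9e-09). Atp6v0d2, a subunit of the proton pump known from osteoclasts, had 9.43, 13.3, 43.6, 56.3 and 109.8 CPM with IL12, against 0, 0.236, 0.176, 0.474 and 0.769 CPM with TGFB1. For Atp6v0d2 the log2 fold change was 7.04 ± 0.75 (adjusted p = 3.1e-08), and 6.44 without IL12 library 75. Both genes were also near 0 without added cytokine, at 0.225 ± 0.139 CPM and 0.247 ± 0.168 CPM. Myh11, a smooth muscle myosin gene, had 2.60, 2.81, 23.2, 33.05 and 23.2 CPM with IL12, and TGFB1 libraries held 1 count in all against 827, a ratio of 871 with an exact 95% interval of 156 to 34444. Mmp10, a matrix metalloproteinase gene, had 0.273, 1.74, 8.38, 11.6 and 21.8 CPM with IL12 and no count with TGFB1, so that it was at least 150-fold higher (adjusted p = 0.0007), and Esm1, an endothelial proteoglycan gene, was at least 112-fold higher by the same floor (adjusted p = 0.00038). For these 5 genes the IL12 libraries 71, 72 and 75 were higher than 62 and 67. The summed stromal and endothelial markers were 51.7 to 88.5 CPM with IL12 and 70.6 to 107.4 CPM with TGFB1 (2 of 6 at 0), and the ranges overlapped. Nearly all of each sum came from Pecam1 and Epcam. Pecam1 had 13.8 to 39.6 CPM with IL12 and 25.9 to 81.1 CPM with TGFB1, and Epcam 28.3 to 51.4 CPM and 17.1 to 44.2 CPM. Col1a1 and Cdh5 were at most 0.474 CPM in any of the 10 libraries. Eps8 had 383 counts with IL12 and 3 with TGFB1, a ratio of 134 (exact 95% interval 45.7 to 655), and Nkain1 (5.45 ± 0.47, adjusted p = 8e-10) and Cdh17 (5.35 ± 0.90, adjusted p = 2.2e-05) were higher as well. Plac8, a cysteine-rich protein gene of activated T cells, was higher at a much greater level, with 395, 461, 1056, 1369 and 1839 CPM with IL12, against 78.4, 86.7, 125, 83.01 and 129 CPM with TGFB1. For Plac8 the log2 fold change was 3.35 ± 0.39 (adjusted p = 1.3e-07). On the TGFB1 side, Tshb, which encodes the beta chain of thyrotropin, had 0, 0.0969, 0.0963, 0.105 and 0 CPM with IL12, against 17.8, 2.48, 3.88, 7.49 and 2.11 CPM with TGFB1, or 3 against 325 counts, a ratio of 103 (exact 95% interval 34.9 to 501). Tead1, a transcription factor of the Hippo pathway, had 0.273, 0.388, 0.0963, 0.21 and 0 CPM with IL12, against 14.3, 2.01, 2.91, 7.02 and 3.27 CPM with TGFB1. For Tead1 the log2 fold change was -4.85 ± 0.59 (adjusted p = 2.7e-07), and -4.24 without TGFB1 library 62. In both genes TGFB1 library 62 was the highest, whereas for Itgae, Nt5e and Maf it was the lowest. Pdpn, which encodes podoplanin, was lower with IL12 (log2 fold change -3.65 ± 0.56, adjusted p = 8e-06).

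Furin, the gene after which the series is named (GRCm38 chromosome 7, 80388585 to 80405436), had 161, 182, 511, 533 and 485 CPM with IL12, against 73.9, 75.3, 79.9, 93.2 and 82.2 CPM with TGFB1 (log2 fold change 2.21 ± 0.30, adjusted p = 1.1e-06). IL12 libraries 62 and 67 were far below the other 3, and the groups did not overlap. The libraries labelled KO had 161, 120, 132, 196 and 464 CPM with IL12, against 65.96, 72.3, 90.2, 79.3 and 81.8 CPM with TGFB1 (title numbers 63, 68, 70, 73 and 74). Counts per gene include any exon outside a deleted part, so these levels do not check the KO label. Both cytokines raised Furin over the 34.5 ± 3.57 CPM of cells without added cytokine, by a log2 fold change of 3.44 (adjusted p = 2.8e-08) with IL12 and 1.23 (adjusted p = 0.0023) with TGFB1. Of 7 tested proprotein convertase genes 2 were higher and 3 lower (2 and 3 without the outlying libraries), or 71.4% called against 52.5% of all genes. The other higher gene was Pcsk4 (log2 fold change 1.33 ± 0.21, adjusted p = 1e-05).

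The direct contrast combines 2 effects, and the values against cells without added cytokine show on which side each gene's gap lay. Both comparisons use the same 5 control libraries. For Ifng, Tnfrsf8, Prdm1 and Furin the log2 fold change over those cells was 6.37 (adjusted p = 5.5e-09), 5.90 (adjusted p = 2.8e-07), 3.33 (adjusted p = 1.9e-07) and 3.44 (adjusted p = 2.8e-08) with IL12. For the first 3 of these genes it was 0.29 (adjusted p = 0.69), -0.52 (adjusted p = 0.68) and -0.35 (adjusted p = 0.54) with TGFB1. For Itgae, Nt5e and Il17f it was -0.43 (adjusted p = 0.64), 0.92 (adjusted p = 0.054) and 1.44 (adjusted p = 0.32) with IL12, and 5.73 (adjusted p = 2.6e-10), 5.45 (adjusted p = 6.7e-13) and 6.13 (adjusted p = 4.6e-08) with TGFB1. Gzmb, Prf1 and Eomes moved both ways, and so did Tcf7, with -0.92 (adjusted p = 0.031) with IL12 and 1.34 (adjusted p = 0.0011) with TGFB1. In all, 1236 genes (10.5%) were higher and 973 (8.3%) lower with IL12 than without added cytokine, and 2255 (19.2%) higher and 2184 (18.6%) lower with TGFB1.

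**Figure D4:**
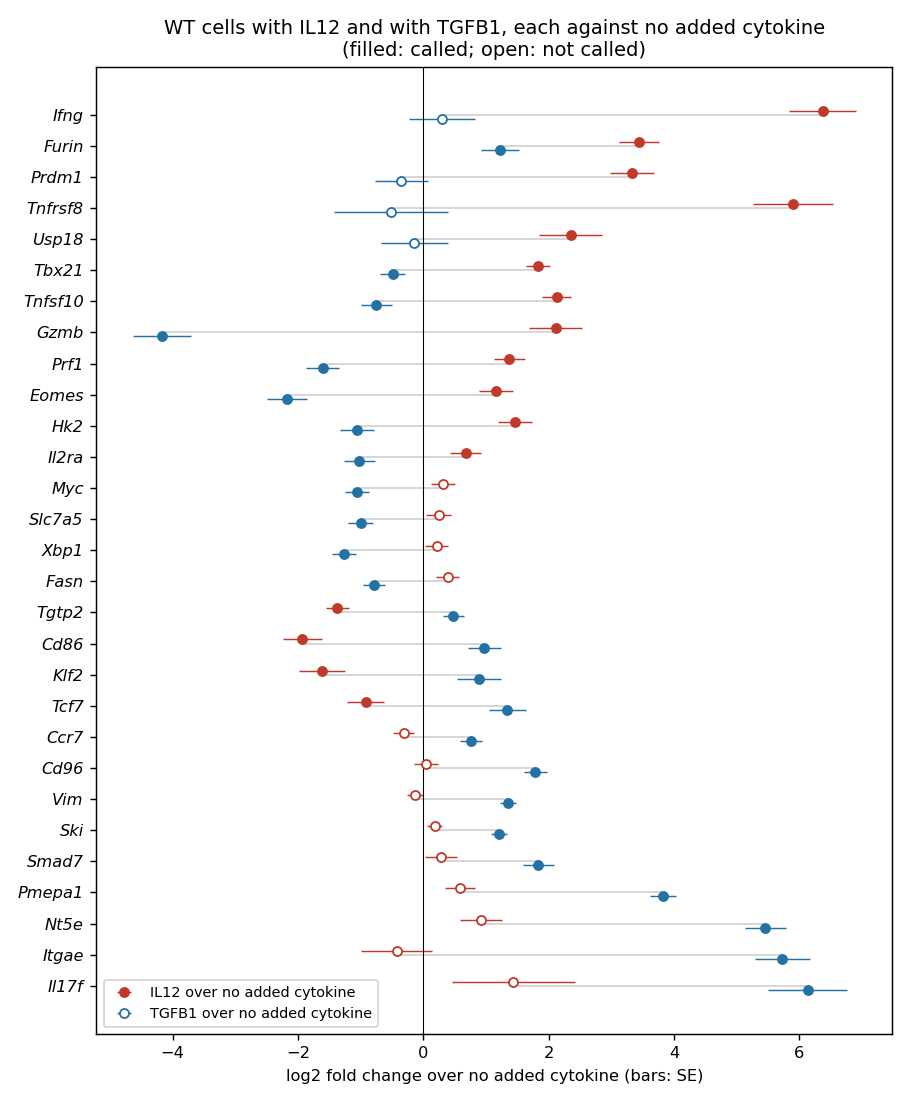
Log2 fold changes of 29 genes over WT cells without added cytokine, with IL12 (red) and with TGFB1 (blue); bars are standard errors, filled points were called and open points were not, and both comparisons share their 5 control libraries. Ifng, Tnfrsf8 and Prdm1 lie far from 0 with IL12 alone, Itgae, Nt5e and Il17f with TGFB1 alone, and Gzmb, Prf1 and Eomes with both, in opposite directions.

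Of the 71 named genes that were higher with IL12, 61 had a larger fold change in numbers 71, 72 and 75 than in 62 and 67, and of the 62 that were lower, 40 did. These genes were called, and many were chosen for a large fold change, over both sets together. This favours 71, 72 and 75, the set with more libraries. The difference between these sets was not tested. Gzmb had a log2 fold change of 7.61 in 71, 72 and 75 and of 4.65 in 62 and 67, and Ifng of 6.98 and 4.15. Furin had 2.58 in 71, 72 and 75 and 1.21 in 62 and 67. Itgae had -6.38 in 71, 72 and 75 and -5.73 in 62 and 67. Spp1 and Gucy1a1, a subunit gene of soluble guanylate cyclase, went against this, with 2.42 and 4.15 for Spp1 and 0.36 and 2.24 for Gucy1a1. Number 62 is the male of each group, and no label names a batch.

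**Figure D5:**
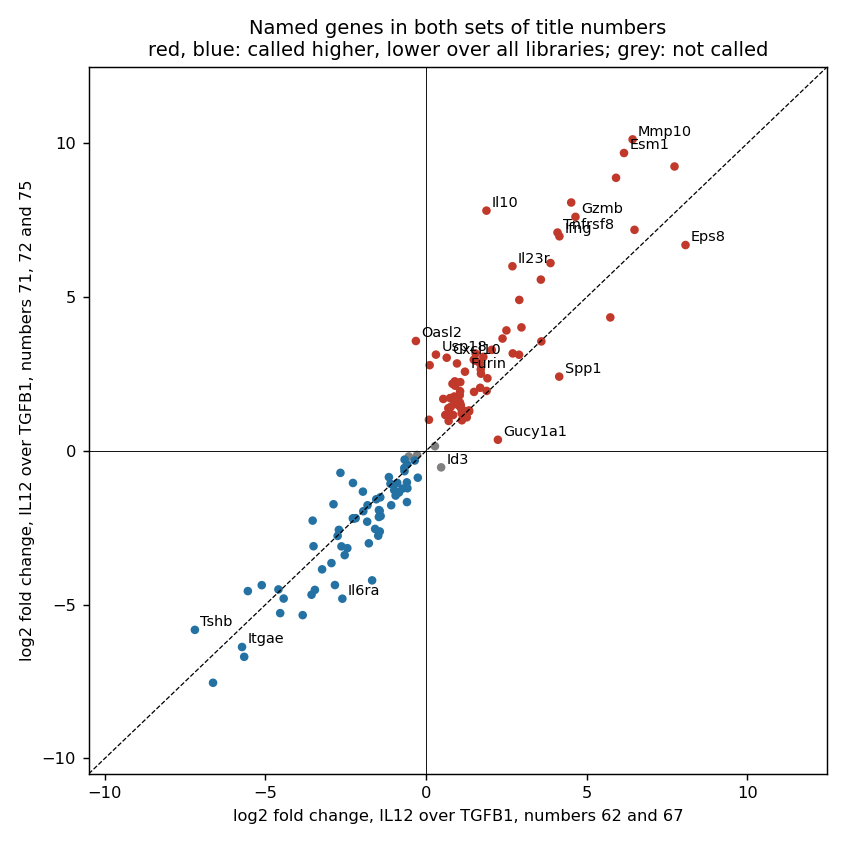
Log2 fold changes (IL12 over TGFB1) of 137 named genes, in title numbers 62 and 67 on the x axis and in 71, 72 and 75 on the y axis; red and blue genes were called higher and lower over all 10 libraries, grey genes were not called, and the dashed line marks equal values. Of the 71 red points 61 lie above the line, and Oasl2 and Id3 are the named genes with opposite signs. Calling over both sets together favours the set with more libraries.

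In the libraries labelled KO, 1746 genes (14.9%) were higher and 1859 (15.9%) lower with IL12 than with TGFB1. The difference between the genotypes was tested as an interaction, WT minus KO, and 422 genes (3.6%) were called with a higher and 422 (3.6%) with a lower value in WT. This count was unstable: with only total counts as the scaling it was 264 and 500, with the 20 compared libraries alone edgeR called 0 genes (2824 at an unadjusted p below 0.05, and 1504 called by DESeq2 on all 30 libraries), and leaving out 1 library gave between 120 and 3067 genes. Leaving out TGFB1 library 62 of WT gave the highest count, and without the 3 outlying libraries 3935 genes were called. Ubd, which encodes the ubiquitin-like protein FAT10, had a log2 fold change of 2.11 in WT and -1.90 in KO, a difference of 4.01 ± 0.69 (adjusted p = 0.0086). The WT value of Ubd was 1.32 without IL12 library 75 and 0.11 (adjusted p = 0.93) in numbers 62 and 67. Id3, an inhibitor of E proteins, had -0.12 in WT, where it was not called, and 2.05 in KO, a difference of -2.17 ± 0.36 (adjusted p = 0.0069). Without the outlying libraries its WT value was -0.58 and was called (adjusted p = 0.043). Il10 had a difference of 4.89 ± 1.49 (adjusted p = 0.045), Il2ra of 1.25 ± 0.34 (adjusted p = 0.033), Il18r1 of -1.51 ± 0.45 (adjusted p = 0.042), Gucy1a1 of -2.34 ± 0.45 (adjusted p = 0.014) and Dusp2, a phosphatase gene of activated T cells, of -1.15 ± 0.21 (adjusted p = 0.013). Gzmb, with a difference of -1.30 ± 0.63 (adjusted p = 0.16), Ifng, with 0.62 ± 0.64 (adjusted p = 0.53), Itgae, with -1.04 ± 0.73 (adjusted p = 0.34), and Furin, with 0.75 ± 0.41 (adjusted p = 0.21), were not called in this test. The sterol and amino acid lists had WT medians of 0.54 and 0.63 and KO medians of -0.028 and 0.077, and 8 of 26 and 7 of 27 genes were called with a higher value in WT and the rest were not called.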

How the data were processed

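RNA was sequenced from activated CD8 T cells after poly(A) selection with a directional library kit, per the labels. The authors deposited raw counts of reads per gene for 30 libraries; the submitters' processing notes name FastQC, Trim Galore, STAR, DESeq2 1.24.0 and the build GRCm38. Of how reads were counted (tool, strand, annotation), nothing is stated in the labels or notes. Gene names came from GENCODE vM21: 55480 of 55573 identifiers matched. Totals per WT library ran between 7306151 and 11435315 counts, and intervals and floors cover counting error only.

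Genes were kept with the edgeR 4.0.16 filter (minimum count 10); 11718 genes, holding 99.88% of counts, passed. Library sizes were scaled with TMM, and a quasi-likelihood model of 6 groups was fitted to 30 libraries (biological coefficient of variation 14.3%). IL12 was tested against TGFB1 within WT, p-values were adjusted by Benjamini and Hochberg over all tested genes, and genes below 0.05 were called. CPM use the same scaling. A standard error is the size of the log2 fold change divided by the square root of F. A gene with no count in a group was set against a floor of 3 counts over that group. Promoters are from RefSeq.

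Named genes were taken from a set of key genes, from the largest rises and falls (over all genes, among abundant genes, among genes near 0 in one group and within each list) and from the genes with the smallest p for the difference between WT and KO. The members, lists, libraries left out and tests were chosen with earlier results of these data known. Alternatives covered scaling, filters, DESeq2 1.42.0, limma 3.58.1, subsets of libraries and each library left out.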

Additional observations from a re-analysis of the deposited data

Results flagged for a closer look

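In 22 of 274 groups of 5 values (137 named genes with IL12 and with TGFB1), 1 library lay far from the other 4, by the gap to the nearest library as a share of the whole range. Chance gives about 1 in 20. Of these 22 values, 9 were TGFB1 library 62, which also lay nearest to the IL12 side on the first principal component: Gzmb 0.819, Ifng 0.730, Il2ra 0.776, Nolc1 0.763, Slc7a5 0.769, Socs1 0.746, Tnf 0.891, Trib3 0.791 and Xbp1 0.764. In TGFB1 library 75 it was Ccl9 (0.854), Ccr2 (0.779) and Il1rl1 (0.840). In TGFB1 library 71 it was Myh11 (1), whose single TGFB1 count lay there. Among the IL12 libraries, library 75 stood apart for Ccl5 (0.776), Cyp1a1 (0.746), Prf1 (0.845) and Rpl3 (0.815), library 71 for Cxcr3 (0.784), Ikzf2 (0.815) and Irf7 (0.769), and library 72 for Tgfbr1 (0.794) and Xbp1 (0.910).

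For 13 named genes the log2 fold change of IL12 over TGFB1 differed between WT and KO in the interaction test of edgeR. It was higher in WT for Il10 (4.89), Ubd (4.01), Il2ra (1.25), Pcsk4 (1.16) and Xbp1 (0.99). It was lower in WT for Gucy1a1 (-2.34), Id3 (-2.17), Bcl6 (-2.08), Ccl5 (-1.73), Il18r1 (-1.51), Dusp2 (-1.15), Tgfbr2 (-0.95) and Ski (-0.59). The number of genes called in this test depended on single libraries, as given below.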

How the results depend on the processing

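For IL12 against TGFB1 in WT, 6150 genes were called, and between 5440 and 6706 when each library was left out in turn. The count was 1069 with a fold minimum of 1.5 and 1578 in numbers 62 and 67 alone, while numbers 71, 72 and 75 gave 6290. With the replicate block it was 4411, and with the 10 compared libraries alone 4559. The deviations of same-numbered IL12 and TGFB1 libraries correlated at 0.1004 (62), 0.2211 (67), 0.2552 (71), 0.2828 (72) and -0.01361 (75); in numbers 67, 71 and 72 both libraries correlated best with each other, and in 62 and 75 they did not. Since 1 of the 5 was below 0.1, the threshold for pairing, the numbers were not taken as pairs, although the other 4 lay above it. In the WT comparison the block changed the count by less than 1.5 times. Upper quartile scaling put 43.1% of the called genes on the higher side, against 50.7% as reported. Of 133 named genes that were called, 131 stayed called without each single library (Ahrr and Ctsw did not), 88 under every alternative that gave a value, and 37 lost the call in numbers 62 and 67, where 2 libraries stood against 2. In 16 of the 133, leaving out 1 library moved the fold change by more than 1.5 times; 4 of these (Il10, Mmp10, Myh11 and Tshb) were read at a few counts in one group. Oasl2 had a log2 fold change of -0.31 in numbers 62 and 67. Id3, not called as reported, had 0.47 there and between -0.30 and 0.027 without 1 library.

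For the difference between WT and KO, 844 genes were called as reported, 559 without a filter on low counts, 1504 with DESeq2, 2468 in females alone, 52 in numbers above 70, 2 in numbers below 70 and 3935 without the 3 outlying libraries. With a fold minimum, with the 20 compared libraries alone and with the replicate block, edgeR called 0 genes each, where 516, 2824 and 3131 genes had an unadjusted p below 0.05. Leaving out 1 library gave between 120 and 3067 genes. The cause of these shifts was not tested. In WT, the count was 3067 without TGFB1 library 62, 1346 without IL12 library 62, and between 120 and 183 without IL12 library 72 or 75 or TGFB1 library 67, 71 or 75. In KO, it was 1756 without TGFB1 library 73, 1342 without IL12 library 74, 303 without IL12 library 63, and between 125 and 183 without IL12 library 68 or 70 or TGFB1 library 68 or 74. Depth limits the genes read at a few counts, such as Il10, Ccl20 and Tshb, to ratios with wide intervals.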
